A study of Mus musculus domesticus with 18 samples.

Results

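The genes described here are 9 genes whose expression in liver depends on Wnt signals around the central vein: Gulo, Axin2, Lgr5, Tbx3, Slc1a2, Rhbg, Lect2, Rnf43 and Znrf3. They were followed through every array probe set annotated to 1 of these symbols alone, which makes 9 of the 18193 genes measured and 20 of the 45037 probe sets tested; 1 more, annotated to Slc1a2 and another gene together, was not analysed here. The livers came from 18 wild-trapped male Mus musculus domesticus, 9 from La Paz, Bolivia, at 3600 m (high altitude) and 9 from Lima, Peru, at 100 m (low altitude). Each altitude had 3 trapping locations, called A, B and C within it, with 3 mice each, and no treatment or age is given. Total RNA of each liver was hybridised to 1 Affymetrix mouse array. City, mouse population and altitude go together in this design and cannot be told apart, and the strain label (C57BL/6J) goes against the wild origin that titles and source names give.

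In the liver lobule, endothelial cells of the central vein release Wnt ligands and R-spondins, and the hepatocytes beside them answer through beta-catenin. R-spondins act by binding Lgr receptors and drawing away the membrane ubiquitin ligases Rnf43 and Znrf3, which otherwise remove Frizzled receptors from the cell surface. Both ligases and Axin2, a scaffold of the complex that destroys beta-catenin, are themselves targets of the pathway and act as negative feedback. Pericentral hepatocytes are known for taking up glutamate and ammonium and making glutamine, and for the cytochrome P450 enzymes they hold. The arrays measured whole liver, so fewer pericentral cells and less RNA per pericentral cell cannot be told apart, and the position of a transcript in the lobule was not measured.

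Array medians lay between 5.24 and 5.36 on the log2 scale, and arrays correlated with each other at 0.976 to 0.994 over all probe sets. The number of arrays limits the precision of every value. The hepatocyte marker Alb averaged 14.84 ± 0.05 at high and 14.80 ± 0.09 at low altitude (mean and SD of 9 mice each), and all 6 measured hepatocyte markers differed by between -0.06 and 0.04. RNA integrity was read from the gap between the 3 prime and 5 prime control probe sets of Actb, which grows as RNA degrades. This Actb gap was 1.40 ± 0.32 in high and 1.21 ± 0.17 in low altitude mice (SD, n = 9 each), and high B1 had the highest, at 2.02. Markers of T and NK cells had positive differences in 6 of 6 genes (median 0.62, 0 called by limma and 5 at an unadjusted p under 0.05), with a mean level of 5.66 to 7.16 in high and 5.33 to 6.05 in low altitude mice. Kupffer cell and macrophage markers had positive differences in 8 of 8 (median 0.26, 0 called and 2 at an unadjusted p under 0.05), with a mean level of 8.94 to 10.32 in high and 8.84 to 9.87 in low altitude mice. Among all 18193 genes, by their brightest probe sets, 51.6% of differences were positive and 11.5% had an unadjusted p under 0.05. Of 5 B and plasma cell markers 2 were called, Ighm and Jchain, both higher at high altitude, against 0.363% of all genes. That list had a median difference of 0.06, and 2 of its 5 differences were negative. Of 6 markers of central vein endothelium 0 were called, with a median of -0.01. The part of these cells in the results below was not tested.

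The first comparison asked whether the 9 genes differed between high and low altitude livers. Gulo, Rnf43 and most Tbx3 probe sets had lower levels in high altitude mice, Slc1a2 probe sets went both ways, and Axin2, the usual readout of the pathway, and Znrf3 lay close to 0. None of the 20 member probe sets passed limma's test at an adjusted p under 0.05 over all probe sets, against 0.298% of all probe sets. At an unadjusted p under 0.05, 7 of the 20 were counted, from Gulo, Rnf43, Tbx3 and Slc1a2, against 10.1% of all probe sets, 5 of them lower at high altitude (4.95% of all) and 2 higher (5.11% of all). None of the 20 separated all high from all low altitude mice, which 0.0822% of all probe sets did. Probe sets of 1 gene share their source, and the members were chosen with earlier results known, so these counts describe the list only. In all, 14 of 20 differences were negative, with a median of -0.14, against 50.2% negative and a median of -0.00043 over all probe sets. Among the 13 at or above the median probe set level, 10 differences were negative (52.7% of all such probe sets) and 5 had an unadjusted p under 0.05 (13.1%). The median standard error over the 20 was 0.13 on the log2 scale.

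**Figure D1:**
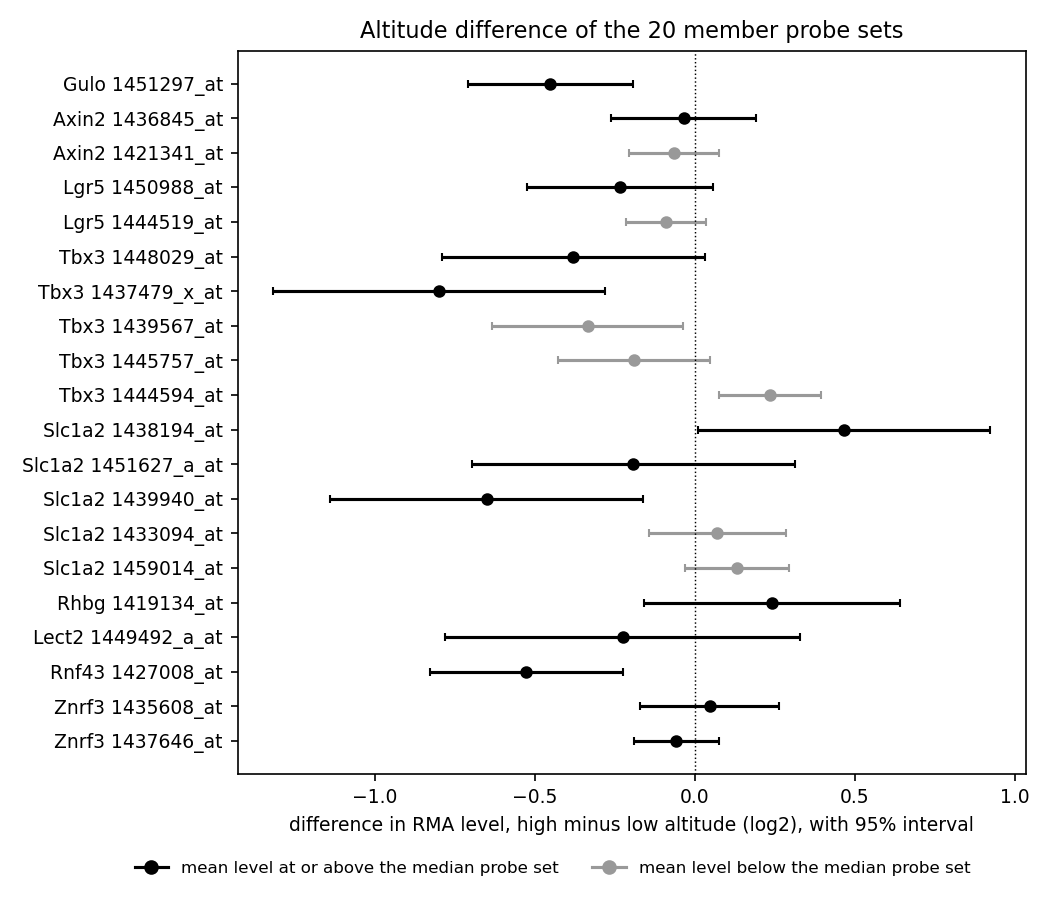
Difference in RMA level (log2, high minus low altitude) of the 20 member probe sets, as points with 95% intervals from limma (n = 9 mice per altitude); grey marks probe sets whose mean level is below that of the median probe set. The intervals of Gulo, Rnf43, Tbx3 1437479_x_at, Tbx3 1439567_at and Slc1a2 1439940_at lie below 0 and those of Tbx3 1444594_at and Slc1a2 1438194_at above it, while no adjusted p is under 0.05.

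Gulo encodes gulonolactone oxidase, the enzyme of the last step of vitamin C synthesis, which mice have and humans lack. Its probe set 1451297_at ranged from 11.14 to 12.24 with a median of 12.03 in high altitude mice, against 12.02 to 12.49 with a median of 12.28 in low altitude mice. Each of the 9 high altitude values was under the low altitude mean, and 7 of 9 low altitude mice lay above every high altitude mouse, but the groups overlapped. The means were 11.84 ± 0.37 at high and 12.29 ± 0.13 at low altitude (mean and SD of 9 mice each), with the larger SD at high altitude. The log2 difference was -0.45 ± 0.12 (SE, 95% interval -0.71 to -0.19, limma adjusted p = 0.136). By location, Gulo averaged 11.78 ± 0.35, 11.97 ± 0.31 and 11.77 ± 0.54 in high A, B and C, against 12.35 ± 0.12, 12.29 ± 0.08 and 12.23 ± 0.19 in low A, B and C (SD, n = 3 each). The 3 high location means thus lay below all 3 low ones. Location means did not overlap in 5 of the 20 member probe sets, with the high means below in 4 and above in 1, and in 13.6% of all probe sets.

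The other genes of vitamin C synthesis and transport did not show a difference of that size. Of the 7 measured, Gulo included, 0 were called by limma and 1, Gulo, had an unadjusted p under 0.05. Rgn, the lactonase one step before Gulo, averaged 12.86 ± 0.25 at high and 13.03 ± 0.19 at low altitude (mean and SD of 9 mice each, difference -0.17, limma adjusted p = 0.604). The ascorbate transporter gene Slc23a2 differed by 0.21 (limma adjusted p = 0.61). The median difference of the 7 was -0.03. The difference between these genes and Gulo was not tested.

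Of the 2 feedback ligases, Rnf43 had lower levels in most high altitude mice and Znrf3 did not, a contrast that was not itself tested. Rnf43 (1427008_at) ranged from 5.74 to 6.60 with a median of 5.98 in high altitude mice, against 6.13 to 7.09 with a median of 6.55 in low altitude mice. Of the 9 high altitude mice 7 lay below every low altitude mouse, and high B1 and C3 at 6.57 and 6.60 lay inside the low altitude range. The log2 difference was -0.53 ± 0.14 (SE, 95% interval -0.83 to -0.23, limma adjusted p = 0.137). Location means of Rnf43 were 5.94 ± 0.04, 6.11 ± 0.42 and 6.15 ± 0.40 in high A, B and C, against 6.74 ± 0.16, 6.54 ± 0.48 and 6.50 ± 0.45 in low A, B and C (SD, n = 3 each), again with all 3 high means below the low ones. Znrf3 (1435608_at) ranged from 6.90 to 7.72 with a median of 7.11 in high altitude mice and from 6.85 to 7.41 with a median of 7.15 in low altitude mice. Its log2 difference was 0.05 ± 0.10 (SE, 95% interval -0.17 to 0.26, limma adjusted p = 0.938), and the interval leaves out a difference as large as that of Rnf43. Without high B1, the highest mouse for this probe set, the difference was -0.02. The second Znrf3 probe set, 1437646_at, differed by -0.06 ± 0.06 (SE, limma adjusted p = 0.84).

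**Figure D2:**
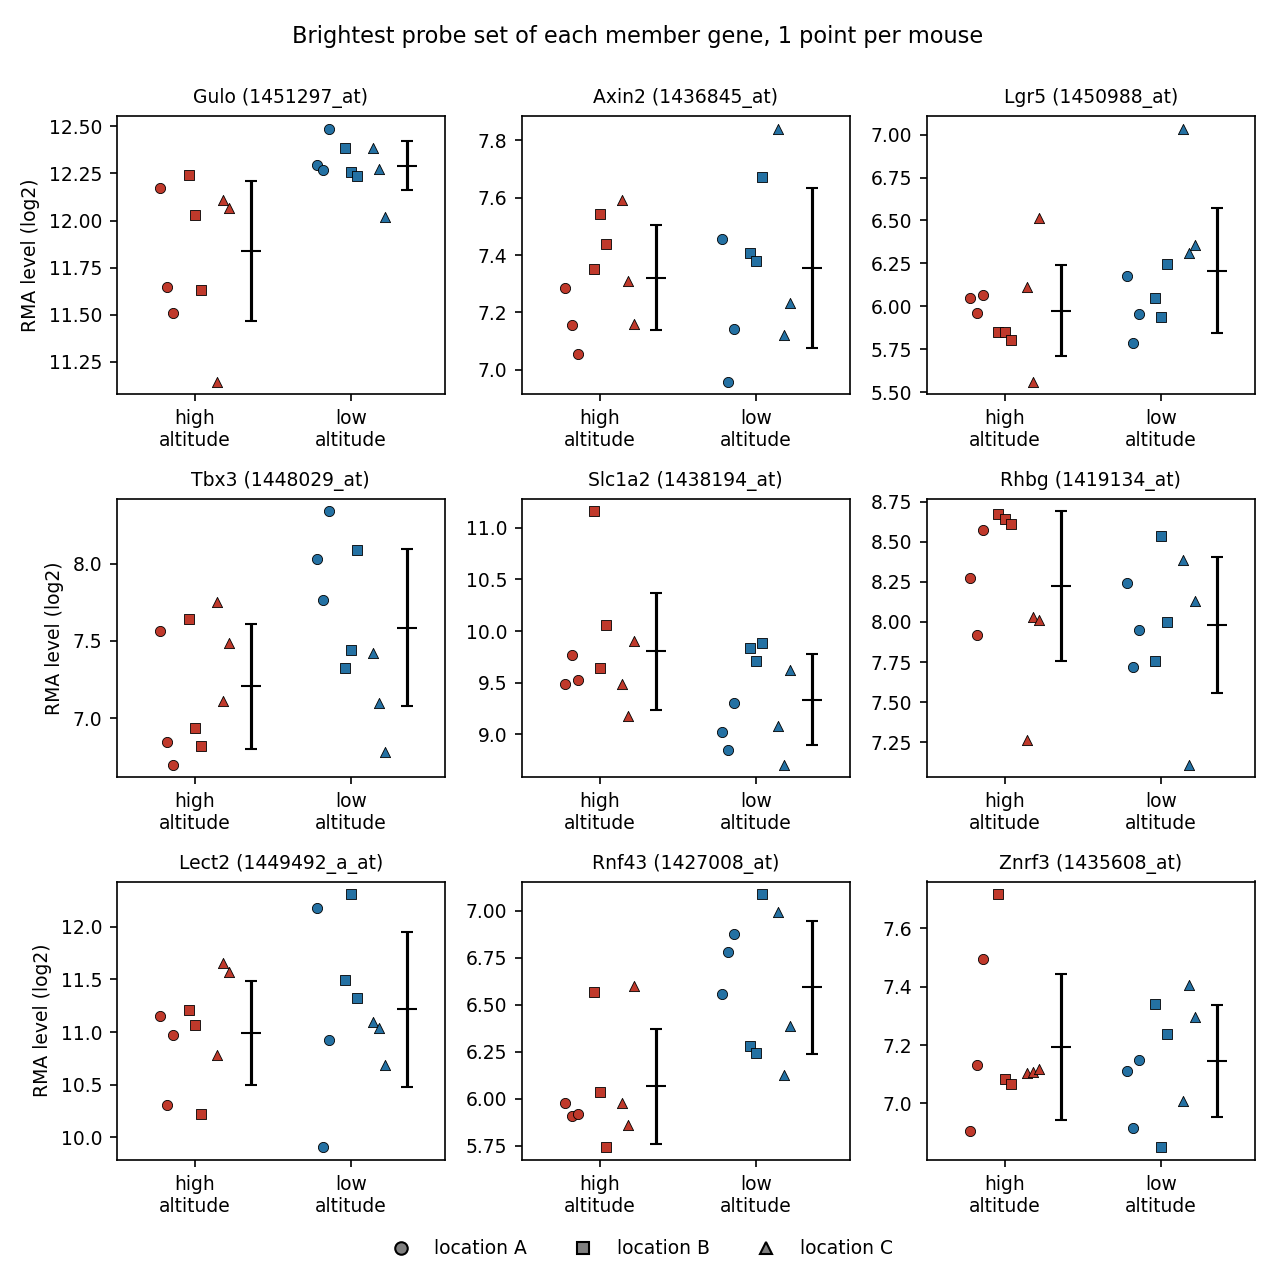
RMA level (log2) of the brightest probe set of each of the 9 genes in each mouse, high altitude (red) left of low altitude (blue), with circles, squares and triangles for locations A, B and C and a bar for the mean with its SD (n = 9). For Rnf43 7 of 9 and for Gulo 4 of 9 high altitude mice lie below every low altitude mouse, and for Axin2 and Znrf3 the groups lie over each other.

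Lgr5, the R-spondin receptor that marks hepatocytes next to the central vein, and Axin2 had overlapping values at both altitudes. Lgr5 (1450988_at) ranged from 5.56 to 6.52 with a median of 5.96 in high altitude mice, against 5.79 to 7.03 with a median of 6.18 in low altitude mice. The top value was that of low C1, and without it the log2 difference was -0.13 in place of -0.23 ± 0.14 (SE, 95% interval -0.52 to 0.06, limma adjusted p = 0.618). The second Lgr5 probe set (1444519_at), whose mean level was below the median probe set, differed by -0.09 ± 0.06 (SE, limma adjusted p = 0.673). Axin2 (1436845_at) ranged from 7.05 to 7.59 with a median of 7.31 in high altitude mice and from 6.96 to 7.84 with a median of 7.38 in low altitude mice. Its log2 difference was -0.03 ± 0.11 (SE, 95% interval -0.26 to 0.19, limma adjusted p = 0.957), and its sign turned when low B3 or low C1 was left out, to 0.0042 and 0.026. The second Axin2 probe set (1421341_at) was dim, at a mean of 3.93, and differed by -0.07 ± 0.07 (SE, limma adjusted p = 0.83).

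Tbx3, a T-box repressor that takes part in hepatocyte identity and is a beta-catenin target in liver, was measured by 5 probe sets that did not all go one way. The brightest, 1448029_at, ranged from 6.70 to 7.75 with a median of 7.11 in high altitude mice, against 6.78 to 8.34 with a median of 7.44 in low altitude mice. Its log2 difference was -0.38 ± 0.20 (SE, 95% interval -0.79 to 0.03, limma adjusted p = 0.541). The probe set 1437479_x_at, of a class whose probes can match other transcripts, ranged from 5.27 to 7.13 with a median of 6.24 in high altitude mice, against 5.99 to 7.96 with a median of 6.91 in low altitude mice. It had the most negative difference of all 20, at -0.80 ± 0.25 (SE, 95% interval -1.32 to -0.28, limma adjusted p = 0.207), with 8 of 9 high altitude values under the low altitude mean. The other 3 lay below the median probe set level. Of these, 1439567_at and 1445757_at differed by -0.33 and -0.19, and 1444594_at, at a mean of only 4.02, by 0.24 ± 0.08 (SE, limma adjusted p = 0.231). Of the low locations, A had the highest mean of 1448029_at, at 8.04 ± 0.29, against 7.62 ± 0.41 in B and 7.10 ± 0.32 in C (SD, n = 3 each). Low A also had the highest of 1437479_x_at and 1439567_at, at 7.50 ± 0.53 and 5.60 ± 0.32. It had the lowest of 1445757_at and 1444594_at, at 5.10 ± 0.12 and 3.84 ± 0.04, against 5.18 ± 0.16 and 3.92 ± 0.13 in low C.

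Slc1a2 encodes the glutamate transporter GLT-1, known best from astrocytes and in liver from the pericentral hepatocytes that also hold glutamine synthetase. Its brightest probe set, 1438194_at, ranged from 9.18 to 11.16 with a median of 9.64 in high altitude mice, against 8.71 to 9.88 with a median of 9.31 in low altitude mice. The log2 difference was 0.47 ± 0.22 (SE, 95% interval 0.01 to 0.92, limma adjusted p = 0.481). The probe set 1439940_at went the other way, with 5.80 to 8.01 and a median of 6.40 in high altitude mice, against 6.31 to 7.76 and a median of 7.25 in low altitude mice. Its log2 difference was -0.65 ± 0.23 (SE, 95% interval -1.14 to -0.16, limma adjusted p = 0.3). Another probe set above the median level, 1451627_a_at, differed by -0.19 ± 0.24 (SE, limma adjusted p = 0.869), and the dim 1433094_at and 1459014_at by 0.07 and 0.13.

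High B1 had the highest level of all 18 mice on 4 of the 5 Slc1a2 probe sets, at 11.16, 8.01, 8.96 and 5.58. On the dim 1459014_at it had the lowest level of all 18, at 3.80. The same mouse had the highest Actb gap, and whether the 2 are linked was not tested. Without high B1 the difference of 1438194_at was 0.30, that of 1451627_a_at -0.35, that of 1433094_at -0.01 and that of 1439940_at -0.84 (limma adjusted p = 0.0523). With the Actb gap as a covariate, 1439940_at gave -0.90 and passed limma's test (adjusted p = 0.0493). Over the 36 alternatives run for 1439940_at the difference lay between -0.90 and -0.44 and the adjusted p between 0.0493 and 0.618.

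The disagreement between the Slc1a2 probe sets was then measured directly, as the log2 level of 1438194_at minus that of 1439940_at in each mouse, a comparison chosen after their values were seen. It was 3.69, 3.18 and 3.19 in the mice of high A, 3.15, 3.51 and 3.55 in high B, and 3.09, 3.00 and 3.24 in high C. In low altitude mice it was 1.77, 1.09 and 1.59 in low A, 2.70, 2.46 and 2.70 in low B, and 2.53, 2.39 and 2.34 in low C. Every high altitude mouse lay above every low altitude mouse, and high B1 lay inside the range of the other high altitude mice. To set this against other genes, such differences were formed for all 11934 pairs of probe sets that share a gene and lie at or above the median level, and fitted by limma in the same way. The pair averaged 3.29 ± 0.24 at high and 2.17 ± 0.56 at low altitude (mean and SD of 9 mice each), a difference of 1.12 ± 0.19 (SE, 95% interval 0.71 to 1.52, limma adjusted p = 0.0101 over all pairs). Of all pairs, 0.763% were called and 0.159% had no overlap between altitudes.

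This gap was the 1 call among the 5 pairs from member genes. It stayed called without any single mouse (adjusted p from 0.00868 to 0.0232) and without any single location (adjusted p from 0.00677 to 0.0487), with differences from 0.77 without low A to 1.34 without low B. With the Actb gap as a covariate, the altitude difference of this Slc1a2 pair was 1.14 (limma adjusted p = 0.0136). With 1 mean per location, 3 against 3, the pair was not called (limma adjusted p = 0.333), a setting in which 0 of 11934 pairs were called. Low A stood apart at 1.48 ± 0.35, against 2.62 ± 0.14 in low B and 2.42 ± 0.10 in low C (SD, n = 3 each). The main fit used a block correlation shared by all pairs. Its SE, interval and p therefore do not carry how far this pair clusters by location, and can overstate the precision. The gap between 1438194_at and 1451627_a_at was 2.12 ± 0.48 at high and 1.46 ± 0.32 at low altitude (mean and SD of 9 mice each, limma adjusted p = 0.104) and was called without high C1 (adjusted p = 0.0355, range over its alternatives 0.0355 to 0.416). The 2 brighter Tbx3 probe sets differed by 0.96 ± 0.39 at high and 0.54 ± 0.25 at low altitude (mean and SD of 9 mice each, limma adjusted p = 0.233), and the Znrf3 pair by 1.40 ± 0.30 at high and 1.29 ± 0.18 at low altitude (limma adjusted p = 0.784). Where in the transcripts these probe sets lie was not analysed here.

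**Figure D3:**
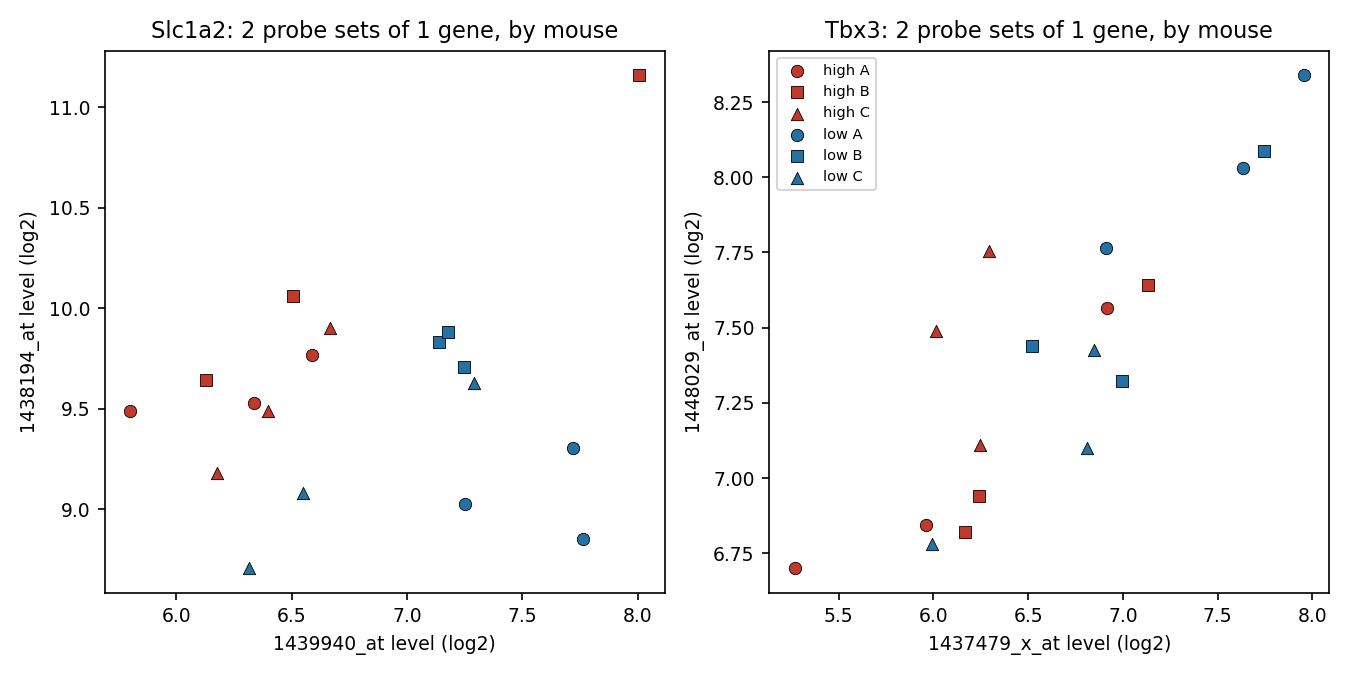
Levels (log2) of 2 probe sets of Slc1a2 (left) and of Tbx3 (right), with 1 point per mouse, high altitude in red and low altitude in blue, and circles, squares and triangles for locations A, B and C. For Slc1a2 the high altitude mice form a band above the low altitude mice, with gaps between the probe sets of 3.00 to 3.69 and 1.09 to 2.70. For Tbx3 the gaps overlap, at 0.51 to 1.48 in high and 0.29 to 0.92 in low altitude mice.

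Rhbg, an ammonium transporter of the Rhesus family, and Lect2, a protein that hepatocytes secrete, varied more from mouse to mouse than between altitudes. Rhbg (1419134_at) ranged from 7.27 to 8.67 with a median of 8.27 in high altitude mice and from 7.11 to 8.53 with a median of 8.002 in low altitude mice. Its log2 difference was 0.24 ± 0.19 (SE, 95% interval -0.16 to 0.64, limma adjusted p = 0.752). Lect2 (1449492_a_at) ranged from 10.22 to 11.66 with a median of 11.06 in high altitude mice and from 9.90 to 12.31 with a median of 11.09 in low altitude mice. Its log2 difference was -0.22 ± 0.27 (SE, 95% interval -0.78 to 0.33, limma adjusted p = 0.857), and 2 mice of low A, at 12.18 and 9.90, lay near the 2 ends of its low altitude range. Of 11 measured genes of glutamate, glutamine and ammonium handling, 0 were called by limma and 2 had an unadjusted p under 0.05, Slc7a2 at 0.50 and Slc1a4 at -0.26 (adjusted p = 0.317 and 0.34). Glul, the glutamine synthetase of the pericentral rim, averaged 11.70 ± 0.30 at high and 11.46 ± 0.40 at low altitude (mean and SD of 9 mice each, difference 0.24, limma adjusted p = 0.652).

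The second comparison asked whether mice of different trapping locations at 1 altitude differed. By limma's F test over the 3 high locations, 0 of 20 member probe sets passed, against 0.167% of all probe sets, with adjusted p from 0.513 to 0.999, and 3 of 20 had an unadjusted p under 0.05, against 8.39%. These were Rhbg and the Slc1a2 probe sets 1438194_at and 1433094_at. Rhbg lay between 8.61 and 8.67 in the 3 mice of high B, above every mouse of the next location, and averaged 8.64 ± 0.03 there, against 8.26 ± 0.33 in high A and 7.77 ± 0.44 in high C (SD, n = 3 each, limma F adjusted p = 0.513). Slc1a2 1438194_at averaged 10.29 ± 0.78 in high B, 9.59 ± 0.15 in high A and 9.52 ± 0.36 in high C (SD, n = 3 each, limma F adjusted p = 0.57). In high B, mouse B1 lay at 11.16 and B2 and B3 at 9.64 and 10.06.

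Over the 3 low locations, 0 of 20 passed limma's F test, against 0.0622% of all probe sets, with adjusted p from 0.606 to 0.998, and 4 of 20 had an unadjusted p under 0.05, against 6.25%. Lgr5 1450988_at averaged 6.57 ± 0.40 in low C, 6.08 ± 0.16 in low B and 5.97 ± 0.20 in low A (SD, n = 3 each, limma F adjusted p = 0.713). Tbx3 1448029_at ran in the other order, low A, low B and low C, with the means given above (limma F adjusted p = 0.606). Slc1a2 1438194_at averaged 9.81 ± 0.09 in low B, 9.14 ± 0.46 in low C and 9.06 ± 0.23 in low A (SD, n = 3 each, limma F adjusted p = 0.79), and the dim Axin2 1421341_at was the other. When the 6 locations were put in order of level for the brightest probe set of each gene, 43 of the 45 neighbouring pairs had overlapping ranges. The exceptions were Lgr5, with low C above low B, and Rhbg, with high B above high A. Neighbours in such an order are the closest locations by construction. The share over all genes was not computed, so this count describes these genes only.

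Whether the members varied together from mouse to mouse was asked for their 36 pairs over 18 mice. None of the 36 correlations passed after Benjamini-Hochberg adjustment, and 4 had an unadjusted permutation p under 0.05. The share among pairs of other genes was not computed, so the count of 4 describes these pairs only. Tbx3 with Rnf43 was highest (Pearson's r = 0.695, permutation p = 0.00168, adjusted p = 0.0605, Spearman's rho = 0.649, permutation p = 0.00472, adjusted p = 0.1). It was 0.623 without high A4 and low A3, the mice farthest from the Tbx3 median, 0.579 within high and 0.655 within low altitude, and 0.648 on deviations from the location means. Gulo with Rnf43 gave r = 0.636 (permutation p = 0.00394, adjusted p = 0.0709) and rho = 0.637 (permutation p = 0.00557, adjusted p = 0.1), 0.657 without high A4 and high C1, 0.484 within high and 0.29 within low altitude, and 0.355 on deviations from the location means. Rnf43 also followed Lgr5 at r = 0.49 and rho = 0.408 (permutation p = 0.0323 and 0.093, adjusted p = 0.349 and 0.697). Its r fell to 0.224 without high C2 and low C1, the mice farthest from the Lgr5 median. It was 0.531 within high and 0.262 within low altitude. On deviations from the location means it was 0.67 (permutation p = 0.00192, adjusted p = 0.0691). That permutation moved the 18 deviations freely, though those of a location depend on each other, so its p can be too small. Slc1a2 with Rhbg, the other pair under 0.05, had r = 0.494 and rho = 0.389 (permutation p = 0.0387 and 0.112, adjusted p = 0.349 and 0.697). Its r fell to 0.169 without high B1 and low C2, the mice farthest from the Slc1a2 median, and was 0.403 without high B1 alone. It was 0.44 within high and 0.425 within low altitude, and 0.185 on deviations from the location means. Leaving out the mice farthest from a gene's median narrows its range, which by itself can lower r. The feedback pair Rnf43 and Znrf3 had r = 0.0093, and Axin2 with Rnf43 0.207. The values of a mouse share its array and the integrity of its RNA.

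**Figure D4:**
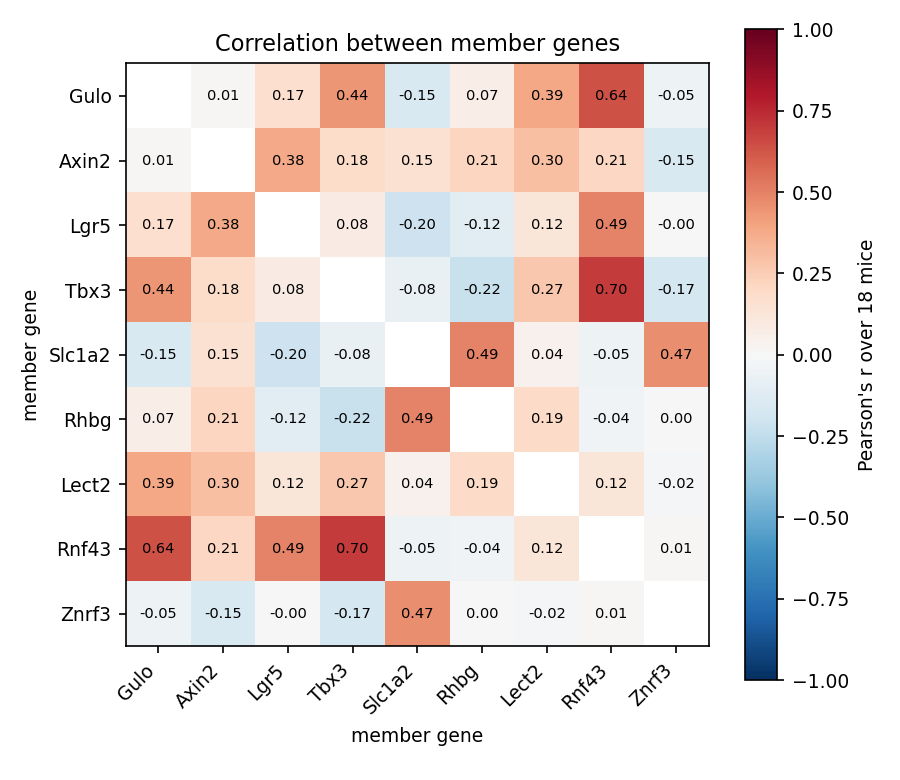
Pearson's r over 18 mice between the brightest probe sets of the 9 genes, as numbers and colours from blue (-1) to red (1). Rnf43 has its highest values with Tbx3 (0.70) and Gulo (0.64), Znrf3 has its highest with Slc1a2 (0.47, or 0.03 without high B1), and no pair passes the adjusted test.

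Among 12222 genes at or above the median level, those most like each member were taken by Pearson's r of deviations from the 6 location means over 18 mice, as a description with no test. For Axin2 the nearest gene was Sp5, a transcription factor gene that Wnt signals induce, at r = 0.837 (0.625 over the levels themselves), followed by 6430548M08Rik at 0.817 and Rbmx at 0.807. For Lect2 they were Pygl, the liver glycogen phosphorylase, at 0.923, the fructokinase gene Khk at 0.893 and Gp5 at 0.871. For Gulo they were Sppl2a at 0.902, Rnf123 at 0.886 and the glutathione transferase gene Gstm6 at 0.883, and for Rnf43 Rufy1 at 0.905, Golga1 at 0.888 and BC029722 at 0.881. For Lgr5 they were Miga2 at 0.855, Tpd52l1 at 0.85 and Phlda2 at 0.829, and for Tbx3 Srsf3 at 0.889, Gm13889 at 0.859 and Btbd9 at 0.846. For Slc1a2 they were Trafd1 at 0.884, Rbm26 at 0.859 and Utrn at 0.852, and for Rhbg Galnt3 at 0.818, Coq5 at 0.815 and Smlr1 at 0.8. For Znrf3 they were Setd3 at 0.851, Serac1 at 0.847 and Btbd3 at 0.839. The highest of so many genes are high in any data of this size.

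The rest of the pathway was read from lists drawn up for this tissue. Over the brightest probe sets of all 18193 genes, 11.5% had an unadjusted p under 0.05 and 5.13% had one with a lower level at high altitude, 51.6% of differences were positive, and the median was 0.0044. Of 11 Wnt ligand and R-spondin genes 0 were called by limma, 1 had an unadjusted p under 0.05, and the median difference was -0.02. The smallest p was that of the ligand gene Wnt2b, at a difference of 0.21 (limma adjusted p = 0.458), followed by Wnt5b at -0.29 (limma adjusted p = 0.54). The central vein ligands Wnt2 and Wnt9b differed by -0.09 and 0.12 and the R-spondin gene Rspo3 by -0.11 (limma adjusted p = 0.9, 0.612 and 0.835). Of 24 receptors and their inhibitors 0 were called and 7 had an unadjusted p under 0.05, 6 of them lower at high altitude. Fzd7 averaged 7.30 ± 0.23 at high and 7.73 ± 0.29 at low altitude (mean and SD of 9 mice each, difference -0.43, limma adjusted p = 0.138). Fzd5, another Frizzled receptor gene, differed by -0.37, and Notum, a secreted enzyme that inactivates Wnt ligands, by -0.34 (limma adjusted p = 0.317 and 0.282). Of 17 genes of the beta-catenin core 0 were called, 0 had an unadjusted p under 0.05, and all differences lay between -0.08 and 0.15. Beta-catenin itself (Ctnnb1) differed by 0.10, the scaffold gene Axin1 by 0.14 and the co-activator gene Bcl9l by 0.15 (limma adjusted p = 0.716, 0.656 and 0.726).

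Of 8 general Wnt targets 0 were called by limma and 4 had an unadjusted p under 0.05, 2 in each direction. Sp5 averaged 5.42 ± 0.23 at high and 6.03 ± 0.55 at low altitude (mean and SD of 9 mice each, difference -0.62, limma adjusted p = 0.17), and Cd44, an adhesion receptor gene also expressed by leukocytes, 8.43 ± 0.47 at high and 7.95 ± 0.29 at low altitude (difference 0.48, limma adjusted p = 0.284). Of 14 classical pericentral genes 0 were called, 8 differences were negative and the median was -0.07. Cyp1a2, a cytochrome P450 of drug and caffeine metabolism, averaged 12.12 ± 0.69 at high and 12.90 ± 0.22 at low altitude (mean and SD of 9 mice each, difference -0.78, limma adjusted p = 0.146). Cyp7a1, the rate-limiting enzyme of bile acid synthesis, differed by 1.42 with an SE of 0.59 (limma adjusted p = 0.398). Nr1i3, the nuclear receptor CAR, differed by -0.20 (limma adjusted p = 0.604), and Cyp2e1 by -0.03.

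Of 14 periportal genes 12 had a higher mean at high altitude (median difference 0.17), against 51.6% of all genes, and 1 was called. This was the lysosomal protease gene Ctsc at 1.27 ± 0.26 (SE, limma adjusted p = 0.0348). The lists were drawn up with earlier results of these data known, so such counts describe the lists only. Over the 107 genes of all these lists Ctsc was the 1 call, and 0.363% of all genes were called. That count was 0 when any single one of high A1, A2, A4, B2, C1, C2, C3 or low B1, B3, C2, C3 was left out, and 2 without low C1. Pigr, the epithelial immunoglobulin transporter gene, differed by 0.49 and Etnppl, an ethanolamine phosphate lyase gene, by 0.70 (limma adjusted p = 0.0813 and 0.23). Of the T-box and hepatocyte factor genes 0 of 7 were called, with Foxa2 at 0.43 and Onecut1 at 0.59 (limma adjusted p = 0.217 and 0.683). Whether the pericentral and periportal lists differ from each other was not tested.

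**Figure D5:**
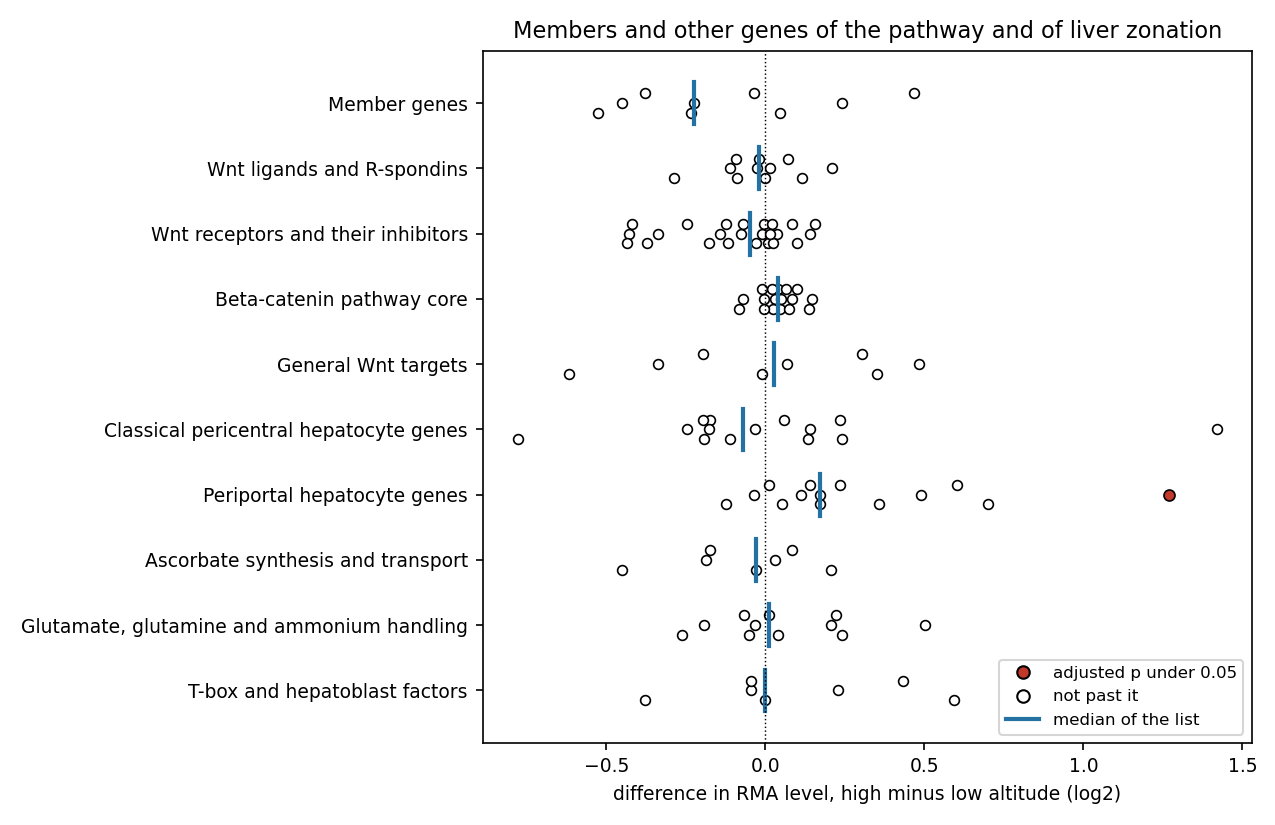
Difference in RMA level (log2, high minus low altitude) of the brightest probe set of each gene, for the 9 members and for 9 lists of related genes, with a bar at each list's median and a filled point for the 1 gene at a limma adjusted p under 0.05. The members' median is -0.22, those of the lists lie between -0.07 and 0.17, and the filled point is Ctsc among the periportal genes.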

How the data were processed

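The deposited log2 levels are RMA values that the authors computed with affy, per the submitters' processing notes (versions not given in the sources used here). This method subtracts background, equalises the arrays' distributions by quantiles and summarises each probe set, which compresses dim probe sets and makes levels comparable within a probe set only. The table held 45101 probe sets, of which 64 Affymetrix controls were left out. Symbols were taken from the platform annotation held by GEO, with 34945 probe sets of 1 symbol, 932 of several and 9160 unnamed here; all 20 member probe sets matched the RefSeq gene table. No sequence of these genes was used here.

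Altitude was fitted with limma 3.58.1 in R 4.3.3 with location as a random block (consensus correlation -0.002), eBayes with an intensity trend, and two-sided p-values adjusted by Benjamini-Hochberg at 0.05 over all 45037 probe sets. As the correlation was near 0, mice of 1 location counted nearly as independent. Locations were compared by moderated F tests in a fit of 6 location means. A gene in a list was represented by its brightest single-gene probe set. Member pairs were correlated with 100000 permutations (exact within an altitude), on Python 3.11.15. The altitude and location fits were tested on simulated data in which mice varied independently. The correlations, the probe set pairs and the search for mice set apart were not.

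The members and lists were chosen with earlier results of these data known. Named genes were all members, the 3 genes of smallest p and any call in each list, and the 3 genes most like each member; Wnt2, Rspo3, Cyp2e1, Alb, Ighm and Jchain lie outside that rule and were added after their values were seen. Mice are separate animals. Alternatives covered normalization, filters, the gene rule, moderation, weights, blocks, an Actb covariate, and leaving out mice and locations; the probe set pairs were added after seeing the data.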

Additional observations from a re-analysis of the deposited data

Results flagged for a closer look

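Of 40 groups of 9 mice, formed by 20 probe sets at 2 altitudes, 4 held a mouse set apart from the other 8, and chance flags about 1 in 20 such groups. Of these, 3 are high B1 on Slc1a2 probe sets. It lay at 11.16 on 1438194_at, where the next high altitude mouse had 10.06, at 8.01 on 1439940_at, where the next had 6.67, and at 5.58 on the dim 1433094_at, where the next had 5.06. The remaining one is Lgr5 1450988_at, where low C1 lay at 7.03 and the next low altitude mouse at 6.36.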

How the results depend on the processing

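The count of member probe sets called for altitude was 0 under 37 of 38 alternatives and 1 with the Actb covariate, and the counts for high and low locations were 0 under all 30 alternatives run for each. The count of correlated member pairs was 0 under all 4. Of the altitude differences of single member probe sets under these alternatives, 715 kept their sign and side of the threshold, 15 changed sign, none of them called, and 1 (Slc1a2 1439940_at with the Actb covariate) crossed the threshold. With all probe sets of a gene averaged, Slc1a2 gave -0.035 and Znrf3 -0.0059. With the Actb covariate Slc1a2 1433094_at gave -0.041 and Znrf3 1435608_at -0.024. Without high location A, Axin2 1436845_at gave 0.044 and Slc1a2 1451627_a_at 0.039. Without high location B, Slc1a2 1433094_at gave -0.044 and Znrf3 1435608_at -0.0025. Without low location A Axin2 1421341_at gave 0.0018, and without low location B Axin2 1436845_at gave 0.030 and Lect2 0.022. With single mice left out, Slc1a2 1433094_at ran from -0.0057 to 0.11, Znrf3 1435608_at from -0.019 to 0.082 and Axin2 1436845_at from -0.085 to 0.026. The count of list genes called, 1, was 0 with 1 mean per location and with mouse number as a replicate block, and 2 with weighted arrays and at a threshold of 0.1. It ran from 0 to 2 without single mice, and was 0 without high A, high C, low B or low C and 4 without high B. Fewer mice were fitted in these; otherwise the cause was not tested. With mouse number as a replicate block the Slc1a2 probe set gap was 1.14 (limma adjusted p = 0.024), and 64 probe sets were called in place of 134. Deviations of same-numbered mice of different locations correlated at -0.013 on average (lowest -0.365, highest 0.389). Other pairs of mice from different locations correlated at 0.006 on average (lowest -0.412, highest 0.429). The blocked fit called 0 member probe sets, as the main fit did. Whether mice of the same number share anything was not tested. All probe sets called ran from 0 with 1 mean per location to 369 with arrays centred on their brightest probe sets, 49 without low B3 and 39 without low location C. The gap was 1.12 with 1 mean per location, where its adjusted p was 0.333. The gap between Slc1a2 1438194_at and 1451627_a_at was 0.77 without high C1. Signal limits the 7 of 20 probe sets that lay below the median level.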
